A study of Mus musculus with 22 samples.

Results

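Gm6722 and Gm13007 are processed pseudogenes of H2afz, the mouse gene that encodes the histone variant H2A.Z. A processed pseudogene is a copy of a spliced mRNA that was reverse transcribed and inserted elsewhere in the genome, so it carries no introns and usually no promoter of its own. H2A.Z replaces H2A in nucleosomes around promoters, where the SRCAP complex deposits it, and it is needed for development beyond implantation. Because such copies resemble their parent gene, short reads from either can be hard to assign, and the FPKM of a pseudogene need not measure its own transcription. The 2 pseudogenes were chosen by name among the 55335 genes of the table, because they share long stretches with H2afz and because their FPKM in H2A.Z knockdown (KD) embryos were already known to be low. Their KD and control values are therefore given as a description, without a test.

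RNA-seq was performed on 22 libraries from B6D2F1 mouse embryos, each made from a pool of 15 embryos. There were 4 control libraries of 2-cell embryos, 4 of morulae and 4 of blastocysts, and 3, 3 and 4 KD libraries of the same stages. Embryos were observed at 44, 78 and 94 h post hCG injection at these stages. For the KD, zygotes received about 10 pl of small interfering RNAs against H2A.Z at 20 µM, and the labels do not state whether control zygotes were injected. The methods of the study name noninjected controls for its qPCR. The siRNA sequences were not used here, so their match to the pseudogenes and to H2afv was not tested. The libraries hold polyadenylated RNA amplified by Smart-seq2, which does not mark the strand, and were read as pairs of 150 bases. Values are FPKM, fragment counts normalized to transcript length and to the total of the library.

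Stage markers were looked at first. The summed FPKM of Zscan4c, Zscan4d and Zfp352, genes of the 2-cell stage, averaged 171 in control 2-cell embryos, 1.64 in control morulae and 0.434 in control blastocysts. Trophectoderm genes Cdx2, Gata3 and Krt8 summed to 0.949, 47.2 and 379 in the same order. The inner cell mass genes Pou5f1, Nanog and Sox2 summed to 3.66 at the 2-cell stage, 138 in morulae and 148 in blastocysts, and the primitive endoderm genes Gata4, Gata6 and Sox17 to 5.06, 14.2 and 11.2. The last 2 lists did not move together. From control morulae to control blastocysts Pou5f1 went from 31.9 to 14.0, Nanog from 106 to 132 and Sox2 from 0.125 to 1.67. The 2-cell sum of the primitive endoderm genes was mostly Gata4, with a mean of 4.85 that depends on library 1. Gata4 FPKM were 10.3, 1.33, 6.41 and 1.42 in 2-cell control libraries 1, 2, 4 and 5. Gata6 had 14.2 in control morulae and 10.6 in control blastocysts and Sox17 0.00251 and 0.596. The blood cell genes Cd52 and Ptprc summed to 1.11 at most in the control groups, most of it Cd52, while Ptprc was listed at 0 in every morula library. In KD embryos the sums were 169.8, 0.979, 3.14, 3.25 and 1.10 for the 5 lists at the 2-cell stage. KD morulae had 2.35, 38.7, 39.9, 9.79 and 2.05, and KD blastocysts 3.51, 269, 188, 19.4 and 1.19. In KD blastocysts Gata6 was higher than in control, at 19.0, and Sox17 lower, at 0.277. Krt8 was 343 in control and 239 in KD blastocysts, Gata3 34.9 and 28.9, and Cdx2 1.79 and 1.89. Pou5f1 and Nanog were higher in KD blastocysts than in control, at 25.7 and 161, and Sox2 lower, at 1.36. The part of these differences in the pseudogene values was not tested.

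Libraries of 2-cell control embryos fell into a higher and a lower pair for Gm6722, which bears on all 2-cell results. For Gm13007 libraries 1 and 2 were also the highest, but libraries 4 and 5, at 5.43 and 9.02, formed no close pair. Libraries 1 and 2 had Gm6722 FPKM of 39.3 and 38.8, against 18.9 and 25.0 in libraries 4 and 5. Morula numbers also separate into 1 and 2 and higher numbers, but the labels do not say that a number marks a batch. A further library, KD 2-cell embryos number 1, had more H2afz than the other KD libraries of its stage.

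The targeted gene H2afz (ENSMUSG00000037894.13, plus strand of mm10, chr3:137864487-137866922) was low in every library labelled KD. In 2-cell embryos its FPKM were 1244, 1236, 905 and 1178 in control libraries 1, 2, 4 and 5 and 415, 139 and 112 in KD libraries 1, 2 and 4. In morulae they were 1158, 1336, 1511 and 1421 in control libraries 1, 2, 7 and 8, and 30.3, 25.7 and 29.0 in KD libraries 1, 2 and 6. Blastocyst values were 2656, 2431, 1945 and 2055 in control libraries 1, 4, 5 and 6 and 64.2, 67.2, 53.2 and 57.6 in the KD libraries with the same numbers. The groups did not overlap at any stage, and the KD mean was 19.4%, 2.09% and 2.67% of the control mean in 2-cell embryos, morulae and blastocysts. KD library 1, at 415, raised the 2-cell percent.

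Gm6722 (ENSMUSG00000113431.1) lies on the minus strand of mm10 at chr12:83620680-83621069 and had the higher FPKM of the pair. Its FPKM in 2-cell embryos were 39.3, 38.8, 18.9 and 25.0 in control libraries 1, 2, 4 and 5, and 14.2, 3.76 and 1.84 in KD libraries 1, 2 and 4. All control libraries were higher than all KD libraries, but the lowest control was only 1.33 times the highest KD library. Morula controls 1, 2, 7 and 8 had 29.3, 36.4, 43.0 and 30.8, and KD morulae 1, 2 and 6 had 1.04, 0.456 and 0.974. Here the lowest control was 28.2 times the highest KD library. Blastocyst FPKM were 67.6, 65.5, 42.3 and 56.7 in control libraries 1, 4, 5 and 6 and 1.08, 3.25, 1.65 and 0.736 in the KD libraries. KD blastocysts were all low, with library 4 the highest of them, and the lowest control was 13.0 times that library.

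Gm13007 (ENSMUSG00000083852.1) lies on the plus strand at chr4:135997523-135997887. In 2-cell embryos its FPKM were 13.7, 12.1, 5.43 and 9.02 in the control libraries and 3.16, 0.964 and 1.22 in the KD libraries. As for Gm6722, control libraries 1 and 2 were the highest and control library 4 the lowest, and the groups did not overlap. Morula values were 12.0, 11.1, 12.8 and 11.3 in control libraries and 0.572, 0.311 and 0.206 in KD libraries. The control morulae lay close together, and all KD morulae were under 1. In blastocysts the values were 22.5, 22.0, 13.9 and 16.3 in control and 0.611, 0.318, 0.534 and 0.486 in KD libraries. Every KD blastocyst library was again under 1 and at least 22.7 times below the lowest control.

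**Figure D1:**
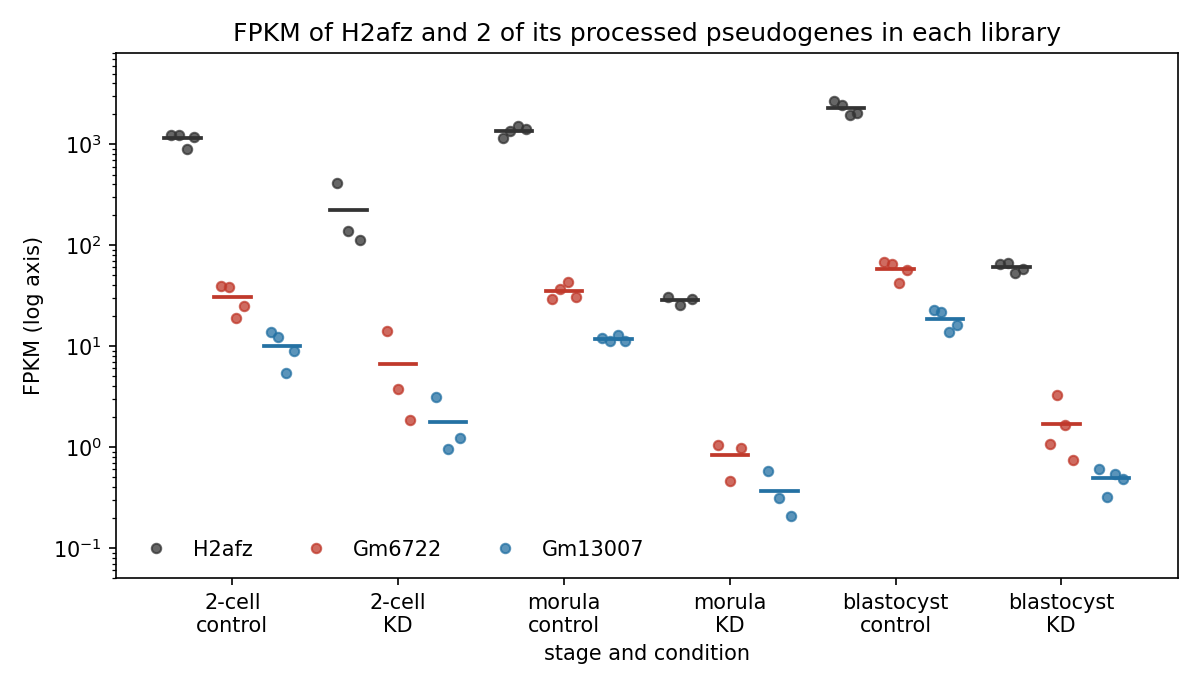
FPKM (log axis) of H2afz, Gm6722 and Gm13007 in each of the 22 libraries, by stage and condition, with a point per library and a line at the group mean. In morulae and blastocysts the KD points of each gene sit well below its control points, and in 2-cell embryos the gap is smaller, with 14.2 in the highest KD and 18.9 in the lowest control library of Gm6722.

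Control 2-cell embryos averaged 30.5 ± 10.2 (SD, n = 4) for Gm6722 and KD ones 6.58 ± 6.63 (SD, n = 3). The control and KD means were 34.9 ± 6.20 (SD, n = 4) and 0.824 ± 0.320 (SD, n = 3) in morulae, and 58.0 ± 11.5 (SD, n = 4) and 1.68 ± 1.11 (SD, n = 4) in blastocysts. Gm13007 means were 10.1 ± 3.67 (SD, n = 4) and 1.78 ± 1.20 (SD, n = 3), 11.8 ± 0.743 (SD, n = 4) and 0.363 ± 0.189 (SD, n = 3), and 18.7 ± 4.27 (SD, n = 4) and 0.487 ± 0.124 (SD, n = 4). In bulk embryos, fewer cells that carry a transcript and less of it per cell cannot be told apart. Ordered by level, both pseudogenes were highest in control blastocysts, then in control morulae and control 2-cell embryos, whose ranges overlap, then in KD 2-cell embryos, and lowest in KD blastocysts and KD morulae. The last 2 groups overlapped for both genes. For Gm6722, control blastocysts also overlapped control morulae, and KD 2-cell embryos overlapped KD blastocysts.

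The number of reads behind the low values is small. FPKM multiplied by gene length gathered at a most common smallest step in each library, between 34.9 and 67.4 over 13500 single-exon genes of at least 300 bases, and this step was taken as the approximate worth of 1 fragment. In such steps, Gm6722 held 201 to 351 in the control 2-cell libraries and 19.5 to 128 in the KD ones. It held 239 to 449 in control and 4.27 to 10.6 in KD morulae, and 281 to 583 in control and 4.94 to 24.9 in KD blastocysts. Gm13007 rested on far less, with 2.1 to 4.19 steps in KD morulae and 2.28 to 4.74 in KD blastocysts, against at least 85.3 in the control libraries of these stages. Its KD 2-cell libraries held 7.32 to 26.7. Differences of Gm13007 among KD morulae and among KD blastocysts were therefore not resolved at this depth.

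Differences between KD and control were then taken from the limma fit over all genes of a stage, on the log2(FPKM + 1) scale after scaling between libraries. This scale understates the change of genes with low FPKM. Gm6722 differed by -2.30 (SE 0.49) in 2-cell embryos, -4.20 (SE 0.21) in morulae and -4.51 (SE 0.28) in blastocysts. The values of Gm13007 were -1.95 (SE 0.35), -3.16 (SE 0.16) and -3.68 (SE 0.21), and those of H2afz -2.53 (SE 0.38), -5.41 (SE 0.17) and -5.19 (SE 0.20). The unlogged group means were closer to each other. KD means were 21.6% of control for Gm6722, 17.7% for Gm13007 and 19.4% for H2afz at the 2-cell stage. For morulae these percents were 2.36%, 3.07% and 2.09%, and for blastocysts 2.89%, 2.61% and 2.67%. The 2-cell percents depend on KD library 1, the highest of its group, with 14.2, 3.16 and 415 FPKM of the 3 genes. Without that library the 2-cell limma differences were -2.99, -2.29 and -3.12 in the same order of genes. Both pseudogenes passed the filter, which asks for 1 FPKM or more in 3 or more libraries, but Gm13007 did so in morulae and blastocysts through the control libraries alone, and of the KD morulae only 1 reached 1 FPKM of Gm6722.

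As background, limma called 0% of the 12160 genes tested lower and 0% higher in KD 2-cell embryos, with 701 genes at an unadjusted p under 0.05. The lowest adjusted p of this limma fit was 0.543, that of the targeted H2afz, whose KD mean was 19.4% of control. The fit thus did not call even the targeted gene, so a gene not called at the 2-cell stage is not shown to be unchanged. Without KD library 1 of that stage, 3 genes were called lower, Hmgb1-ps6 and, not as a test, H2afz and Gm6722, the one targeted and the other chosen on this contrast. Without control library 2 only Gm43602 was called lower. Hmgb1-ps6 and Gm43602 are named after their values were seen. In morulae, 2.53% of 10989 genes were called lower and 0.992% higher, which is 278 and 109 genes, or 71.8% lower among those called. With FPKM as deposited the median over all genes moved from 0.02 to -0.09 and 424 genes were called lower and 71 higher, 85.7% lower. With replicate numbers as a block, though same-numbered libraries did not all deviate together, 296 were called lower and 218 higher, 57.6% lower. In blastocysts, 7.69% of 11828 genes were called lower and 6.06% higher. Every KD library lay below every control library for 3.14%, 15.9% and 19.4% of the genes at the 3 stages. Nothing is read from where the 2 pseudogenes fall among these shares, since both were chosen on this contrast.

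Measured against its parent within a library, each pseudogene was a small percent of H2afz in all 6 groups. Gm6722 FPKM were 3.16%, 3.14%, 2.08% and 2.13% of H2afz FPKM in the 2-cell control libraries, 2.53%, 2.73%, 2.84% and 2.17% in morula controls and 2.55%, 2.7%, 2.17% and 2.76% in blastocyst controls. The KD libraries gave 3.41%, 2.71% and 1.64% in 2-cell embryos, 3.43%, 1.78% and 3.36% in morulae and 1.68%, 4.84%, 3.10% and 1.28% in blastocysts. KD values lay on both sides of the control values at every stage, and they were more spread. For Gm13007 the control percents were 1.10%, 0.983%, 0.600% and 0.766% in 2-cell embryos, 1.04%, 0.835%, 0.846% and 0.798% in morulae, and 0.849%, 0.903%, 0.712% and 0.792% in blastocysts. Its KD percents were 0.762%, 0.696% and 1.09%, then 1.89%, 1.21% and 0.709%, and in blastocysts 0.952%, 0.473%, 1.00% and 0.845%. Again the KD and control ranges overlapped at each stage, with KD morula library 1 the highest of all 22. The mean of KD morulae was 1.27% ± 0.591 (SD, n = 3), against 0.814% to 0.879% in the other 5 groups, and it rests on 2.1 to 4.19 steps in each library.

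Over all libraries, H2afz FPKM spanned a 103-fold range, Gm6722 a 148-fold range and Gm13007 a 109.6-fold range. The percent of H2afz spanned only a 3.78-fold range for Gm6722 and a 3.98-fold range for Gm13007, and in the 12 control libraries a 1.52-fold and a 1.84-fold range. These KD percents are a description, as the members' KD values are.

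**Figure D2:**
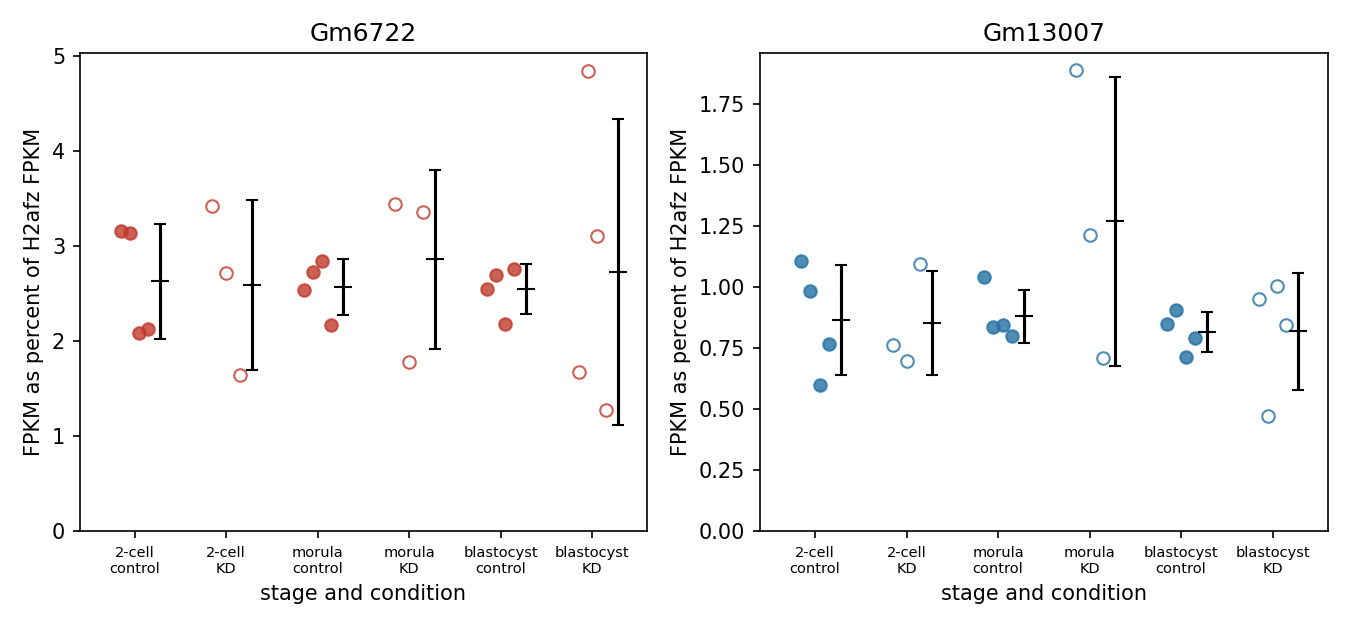
FPKM of Gm6722 (left) and Gm13007 (right) as a percent of H2afz FPKM in each library, by stage and condition, with filled points for control, open points for KD, and the group mean with its SD beside them. Control points of Gm6722 lie between 2.08% and 3.16%, and the KD points, between 1.28% and 4.84%, surround them.

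Between control stages the percent is given as a description too, because the pseudogenes were set beside H2afz over all 6 groups when they were chosen. Means for Gm6722 were 2.63% ± 0.603 (SD, n = 4) in 2-cell embryos, 2.57% ± 0.296 (SD, n = 4) in morulae and 2.54% ± 0.263 (SD, n = 4) in blastocysts. Means for Gm13007 were 0.863% ± 0.225, 0.879% ± 0.109 and 0.814% ± 0.0816 (SD, n = 4 each). The largest difference of the means was -0.08 percentage points for Gm6722 and -0.07 for Gm13007, within the spread of the libraries. Within the 2-cell controls, libraries 1 and 2 gave higher percents of both genes than libraries 4 and 5. The source of this difference was not tested. From 2-cell embryos to morulae, the mean percents of both genes went down within libraries 1 and 2 and up within the higher numbers, seen after the values were known, so the similar group means average opposite differences.

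Levels in normal development are given from the limma fits over all genes, for the pseudogenes and H2afz without a test, for the same reason. From control 2-cell embryos to control morulae, Gm6722 differed by 0.23 (SE 0.28), Gm13007 by 0.27 (SE 0.27) and H2afz by 0.25 (SE 0.20). Of the 13655 genes tested, 32.1% were called higher and 30.1% lower. Libraries 1 and 2 and the higher numbers were also fitted apart, a choice made after seeing the 2-cell values of the pseudogenes, so these estimates restate them. Within libraries 1 and 2, the differences were -0.37 for Gm6722 and -0.26 for Gm13007. Within the libraries with higher numbers they were 0.92 and 0.88, the opposite direction. Leaving out 2-cell control library 4 alone brought the estimates to -0.03 for both genes.

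From control morulae to control blastocysts both pseudogenes had higher means. Gm6722 differed by 0.62 (SE 0.21) and Gm13007 by 0.51 (SE 0.20), beside 0.65 (SE 0.19) for H2afz. Of the genes tested, 13.4% were called higher and 12.9% lower. Blastocyst library 5, at 42.3, overlapped the morula range of Gm6722, while for Gm13007 the deposited FPKM of all 4 blastocyst libraries were higher than those of the morulae and only after scaling did the groups overlap.

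The ratio of Gm6722 to Gm13007 varied little among control libraries. Gm6722 FPKM were 2.86, 3.19, 3.48 and 2.78 times those of Gm13007 in the 2-cell controls, 2.44, 3.27, 3.36 and 2.72 times in the morulae and 3.00, 2.98, 3.05 and 3.49 times in the blastocysts. In KD libraries the ratio ranged from 1.47 to 10.2, the latter in blastocyst library 4, where Gm13007 held 2.28 steps.

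Among all 9934 processed pseudogenes of the table, the 2 had high FPKM in control embryos, which need not be transcription of their own. By mean FPKM, Gm6722 ranked 88 at the 2-cell stage, 194 among morulae and 114 among blastocysts, and Gm13007 ranked 256, 432 and 340. In KD embryos the ranks of Gm6722 were 353, 1572 and 1235 and those of Gm13007 858, 1996 and 1881. The median difference between KD and control was 0.02 over 1279 tested processed pseudogenes in 2-cell embryos, 0.14 over 1532 in morulae and 0.04 over 1579 in blastocysts, beside 0.00, 0.02 and 0.00 over all genes. Those below 0 were 596 of 1279, 453 of 1532 and 715 of 1579, beside 5994 of 12160, 5322 of 10989 and 5874 of 11828 of all genes. The 2-cell and morula values depended on the scaling. With FPKM as deposited, the 2-cell medians were -0.03 for processed pseudogenes and -0.05 for all genes, with 55.4% and 57.8% below 0. The morula medians were then 0.04 for processed pseudogenes and -0.09 for all genes, with 43.7% and 59.0% below 0. At the 3 stages 0, 12 and 39 were called lower and 0, 7 and 39 higher by limma. These are 0.783% lower and 0.457% higher in morulae, beside 2.53% and 0.992% of all genes, and 2.47% each in blastocysts, beside 7.69% and 6.06%. The counts of the later stages include Gm6722 and Gm13007. Apart from these 2, the lowest values at the 3 stages were those of Gm43602 at -1.67, Gm9174 at -1.79 and Gm6197 at -3.01, named after their values were seen.

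The sequences show how close the copies are to their parent. The principal H2afz transcript has 1069 bases in 5 exons, of which 387 bases code for protein, with exon junctions after coding bases 3, 81, 195 and 325. Gm6722 is 390 bases long and spans the coding sequence, with 378 matching and 11 differing bases and 1 inserted base, an identity of 97.2%. Gm13007 is 365 bases long and has 348 matching and 16 differing bases, an identity of 95.6%, with 1 inserted base and 23 deleted bases in 4 stretches between coding bases 8 and 139. Both run across all 4 junctions of the spliced mRNA. Read from the first base of the start codon, Gm6722 meets a stop codon, TAG, after 26 codons, and Gm13007 meets TGA after 30 codons. Positions are counted from 1 at the first coding base of H2afz. The longest exact run shared with H2afz is 81 bases in Gm6722, coding bases 100 to 180, and 116 bases in Gm13007, coding bases 240 to 355.

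Aligned to each other over 364 bases, the pseudogenes are 93.7% identical, with a longest shared run of 78 bases, so each is closer to H2afz than to the other. Only 2 substitutions are common to both over the whole coding sequence.

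**Figure D3:**
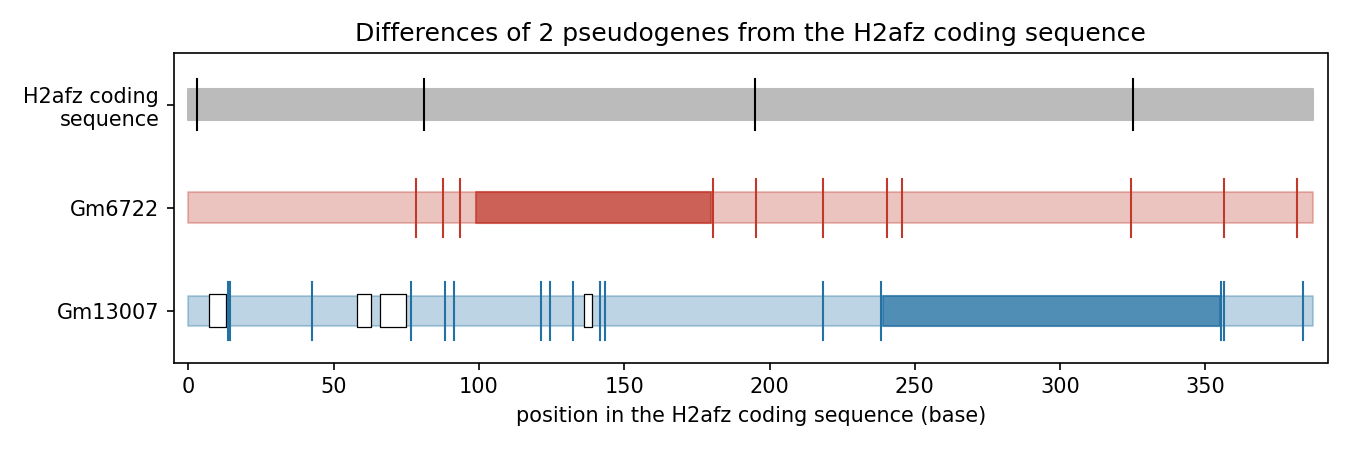
Map of the differences of Gm6722 and Gm13007 from the H2afz coding sequence, with the position in bases on the horizontal axis, exon junctions of H2afz as black lines, substitutions as coloured lines, deletions as white boxes and the longest exact run as a dark bar. Gm6722 has 11 substitutions and no deletion, and Gm13007 has 16 substitutions and 23 deleted bases, all of the latter between coding bases 8 and 139.

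At the length of the reads, no window of either pseudogene was identical to the principal H2afz transcript. The 241 windows of 150 bases in Gm6722 differed from their best match in that transcript by 4 to 7 edits (median 5). The 216 windows in Gm13007 differed by 2 to 31 edits (median 7), and 62 of them by no more than 2. A read of full length with the reference sequence of either copy thus carries at least 2 differences from the H2afz mRNA in the reference. DBA/2 alleles, which these embryos can also carry, were not looked at. How reads that match more than 1 place were shared among genes was not given in the sources used here, so the FPKM of both pseudogenes are uncertain.

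A search of all annotated transcripts for an exact run of at least 50 bases on the sense strand gave 4 genes besides H2afz, and the same 4 at 30 bases. All are processed pseudogenes, the 2 described, Gm6108 (chr7:130766953-130767319) and Gm8203 (chr6:116173737-116174123). Gm8203 is identical to all 387 coding bases of H2afz, and all 238 of its windows match the mRNA exactly, yet its mean FPKM in control embryos were the lowest of the 4 at each stage. Its FPKM were 0, 0.144, 0.113 and 0.191 in 2-cell control libraries and 0.0894, 0.103 and 0.230 in KD ones, 0.162, 0.0743, 0.103 and 0.0367 in control and 0.151, 0.342 and 0.127 in KD morulae, and 2.68, 1.29, 1.42 and 0.988 in control and 0.106, 0.0694, 0 and 0.483 in KD blastocysts. Only in blastocysts did its groups separate, with every KD library below every control library. Gm8203 passed the filter in blastocysts alone, where it differed by -1.12 (SE 0.22).

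Gm6108 is 94.0% identical over its aligned bases, with a longest run of 77 bases. Its FPKM were 0.989, 2.18, 1.24 and 1.15 in 2-cell control and 1.40, 0.297 and 0.231 in KD libraries, which overlap. In morulae they were 1.26, 1.49, 0.893 and 1.52 in control libraries and 0.0399, 0 and 0 in KD libraries, and in blastocysts 0.766, 3.50, 1.91 and 1.90 against 0.00342, 0.270, 0.244 and 0.393. All KD libraries of the later stages were below all controls, with differences of -1.13 (SE 0.16) and -1.21 (SE 0.23). Gm6108 at these stages and Gm8203 in blastocysts passed the filter through control libraries alone, so these differences support nothing. The order of mean FPKM among the 4 copies in control embryos was Gm6722, Gm13007, Gm6108 and Gm8203. Gm6722, Gm13007 and Gm6108 followed the order of their identity to H2afz, at 97.2%, 95.6% and 94.0%. Only Gm8203, identical to the coding sequence, departed from it by coming last. What sets this order was not tested.

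On the antisense strand, looked at after the values were seen, 2 more genes share at least 50 bases with H2afz. A retained intron transcript of Tmcc1 (chr6:116018611-116193486) covers Gm8203 and holds an antisense run of 669 bases. Tmcc1 as a gene had mean FPKM of 48.1, 117 and 165 in control and 12.8, 3.20 and 5.08 in KD embryos of the 3 stages. Its 2-cell controls again fell into a high pair, 81.1 and 76.3, and a low pair, 10.7 and 24.4. KD library 1 of that stage, at 20.0, lay above the lowest control, so the 2-cell groups overlapped. The other gene is Gm26623, a lincRNA at chr12:83620210-83621174 on the plus strand that contains Gm6722 and has a run of 123 bases, which was not analysed here. Without strand, reads of Gm6722 and of a transcript over it on the other strand cannot be told apart.

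H2afv, the second H2A.Z gene, served as a relative by protein without long exact runs. Its transcripts share no exact run of more than 14 bases with those of H2afz, and their identity over a whole alignment was not measured. Its FPKM were 111, 118, 96.8 and 113 in 2-cell control and 97.6, 85.4 and 83.7 in KD libraries, with 1 KD library inside the control range. In morulae they were 97.3, 113, 100.0 and 92.5 in control and 12.9, 11 and 9.90 in KD libraries, and in blastocysts 49.9, 62.0, 54.5 and 63.5 against 19.9, 16.9, 10.6 and 13.9. By limma the difference was -0.23 (SE 0.16, adjusted p = 0.84) at the 2-cell stage, -2.93 (SE 0.15, adjusted p = 2.93e-06) in morulae and -1.86 (SE 0.22, adjusted p = 7.95e-05) in blastocysts. At the 2-cell stage the KD mean of H2afv was 81.1% of control. No contrast with the 2 pseudogenes is drawn, since they were chosen with their low KD values known.

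The genes around the pseudogenes were near their control levels in most comparisons. Gm6722 lies between Zfyve1, 23457 bp away, which encodes a FYVE domain protein, and Rbm25, a splicing regulator 10166 bp away on the other side. Gm13007 lies between Pithd1 at 10258 bp and Eloa at 5480 bp, the latter encoding the elongation factor Elongin A. None of the 4 was called at any stage, and nothing is read from this. Of all genes, 0% were called in 2-cell embryos, where the targeted H2afz was not called either. In morulae 2.53% were called lower and 0.992% higher, and in blastocysts 7.69% and 6.06%. The only adjusted p under 0.05 was that of Eloa in blastocysts, higher in KD by 0.83 (SE 0.19, adjusted p = 0.00438 by limma), opposite to Gm13007. Eloa FPKM there were 6.03, 9.85, 11.3 and 10.5 in control and 13.2, 15.0, 22.0 and 19.5 in KD libraries, with every KD library above every control. The share of all genes with that separation was not computed. For the other neighbours, the adjusted p was lowest for Rbm25 in morulae, at 0.128 with a difference of 0.41 (SE 0.16). Zfyve1 in morulae differed by -0.33 (SE 0.16, adjusted p = 0.21 by limma), the direction of Gm6722. Every KD morula library of Zfyve1 was below every control, a separation seen in 15.9% of all genes tested in morulae.

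Of the 14 genes of the H2A.Z pathway list, which holds the SRCAP complex, the chaperone Anp32e, 3 other remodelling genes and H2afv, limma called 0 in 2-cell embryos, with 1, Dmap1, at an unadjusted p under 0.05. In morulae 3 of 14 were called, all lower, beside 2.53% of all genes lower and 0.992% higher. These were H2afv, Dmap1, a subunit of SRCAP and TIP60 complexes, at -1.47 (SE 0.18, adjusted p = 0.00165), and Kat5, the acetyltransferase of the TIP60 complex, at -1.29 (SE 0.20, adjusted p = 0.00487). In blastocysts, H2afv was called lower among 13 tested, Ino80 being under the filter, beside 7.69% of all genes lower and 6.06% higher. The list's median difference was -0.11, -0.19 and 0.08 at the 3 stages, beside 0.00, 0.02 and 0.00 over all genes tested. Srcap and Anp32e, which deposit and remove H2A.Z, were not called at any stage, with adjusted p of 0.127 or more.

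Over the 22 libraries, the genes with the pattern most like Gm6722 on log2(FPKM + 1) minus the gene's mean were H2afz, at a Euclidean distance of 2.37, Gm13007 at 2.60, Tmcc1 at 3.49, Smim11 at 5.70 and Nme7 at 5.94, among 15466 genes compared. For Gm13007 they were Gm6722 at 2.60, Tmcc1 at 3.63, H2afz at 4.15, Cox7b2 at 4.40 and Nme7 at 4.54. The first 3 of each member are H2afz itself or share sequence with it. Nothing is read from the places of H2afz and of the other pseudogene. Both pseudogenes were chosen for their shared sequence and were set beside H2afz over the same 6 groups. The shared run of Tmcc1 was looked at after the values were seen. Smim11, Nme7 and Cox7b2 differ from the members at the 2-cell stage. Mean FPKM of Smim11 were 31.0 in control and 35.8 in KD 2-cell embryos, then 17.3 and 2.55 in morulae and 48.7 and 4.64 in blastocysts. Nme7 had 6.15 and 7.24, 4.93 and 0.535, and 12.7 and 1.54, and Cox7b2 2.94 and 3.12, 5.78 and 0.634, and 5.01 and 0.309. These 3 genes were low in KD embryos of the later stages and not at the 2-cell stage. Gm6722 and Gm13007 were chosen with their low KD values known, so this difference from them is only a description.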

How the data were processed

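The deposited FPKM come from StringTie 2.1.4, which the authors ran on STAR alignments to mm10, and are normalized for transcript length and library total. Counts of reads were not used here, so depth was approximated from the smallest steps of FPKM times length. Within each fit, libraries were scaled by median of ratios, and genes with 1 FPKM or more in 3 or more libraries were kept. Values of log2(FPKM + 1) were compared with limma 3.58.1 in R 4.3.3 (lmFit, eBayes with trend, no covariates) over all genes, with Benjamini-Hochberg adjustment. A gene was called when its adjusted p was under 0.05 and its log2 difference exceeded 1 in either direction. Percents of H2afz were taken in Python 3.11.15. Planned tests of the pseudogenes between stages, by limma and by exact permutation of these percents, are left out, since their choice used all 6 groups. Sequences came from GENCODE M21 on GRCm38, the assembly of mm10, whose identifiers matched 54587 of 55335 genes with the same version.

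The genes named are the 2 pseudogenes, H2afz, H2afv, the genes sharing sequence with H2afz, the neighbours, the pathway list and the 5 nearest patterns of each pseudogene. Stage, lineage and blood markers are named besides, and Hmgb1-ps6, Gm43602, Gm9174 and Gm6197 after their values were seen. The pseudogenes and the lists were chosen with earlier results of these data known. The labels do not say that libraries of a group came from separate collections, so p-values measure only the spread between these libraries. The steps were tested on simulated data. The bases of the copies are not reported here.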

Additional observations from a re-analysis of the deposited data

Results flagged for a closer look

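In blastocyst control library 6, Gm6722 FPKM were 3.49 times those of Gm13007, against 2.98 to 3.05 in the other 3 control libraries of that stage. The gap to the nearest library was 0.865 of the whole range, above the critical value of Dixon's ratio for 4 libraries. It was the only such value in 52 groups of 4 libraries looked at, and chance alone gives about 1 in 20. The highest 2-cell control library had 3.48.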

How the results depend on the processing

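The KD differences of Gm6722, Gm13007 and H2afz stayed below 0 at every stage under every alternative run, a direction that their choice fixes. With a pseudocount of 0.1 they were larger, -5.18 for Gm6722 and -4.65 for Gm13007 in morulae and -5.20 and -4.98 in blastocysts. Under it Gm6108 differed by -1.24, -3.54 and -2.73 at the 3 stages and Gm8203 by -2.87 in blastocysts. The replicate numbers shared by control and KD libraries were also used as a block, although same-numbered libraries did not all deviate together (correlations of 0.0146 to 0.214 in 2-cell embryos, 0.0944 to 0.181 in morulae and -0.11 to 0.354 in blastocysts, with 5 of 6, 2 of 4 and 3 of 8 libraries closest to their own number). With the block, Gm13007 in morulae differed by -2.99, and 296 genes were called lower and 218 higher in KD morulae, 57.6% lower. Between control 2-cell embryos and control morulae, a block on replicate number rests on numbers 1 and 2, which both stages share. It turned the difference below 0, to -0.42 for Gm6722 and -0.31 for Gm13007. The correlations given above do not cover that pairing.

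In morulae, 278 genes were called lower and 109 higher. These counts were 584 and 205 with the smaller pseudocount, 424 and 71 with FPKM as deposited, and 133 and 36 without the filter, which tests more genes. In blastocysts, 909 and 717 genes became 1370 and 1107 with the smaller pseudocount. Leaving out a library gave 0 to 3 genes called lower in 2-cell embryos, and 1 to 2 genes of the pathway list called in blastocysts, where Vps72 was added, higher by 1.09 without control library 5 and by 1.16 without KD library 4. Between control 2-cell embryos and morulae, 4112 genes were called lower, 1802 within libraries 1 and 2 and 1668 within higher numbers, fits with fewer samples and chosen after seeing the data. A search for shared runs on either strand, also chosen after seeing the data, gave 6 genes in place of 4. Gm6108 in morulae and blastocysts and Gm8203 in blastocysts each fell under the filter in 3 of the fits that left out a control library.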
